A study of Acomys cahirinus and Mus musculus with 6 samples.

Results

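The cells described here are the suprabasal keratinocytes of healing ear skin that lie outside the 8 clusters set aside by number. The authors' deposited table gives each cell a cell type and a cluster number. Cells named "IFE suprabasal" (IFE, interfollicular epidermis, the skin surface between hair follicles) were kept when their cluster was not 1, 5, 9, 10, 21, 31, 44 or 46. This left 3789 of 8442 suprabasal cells, out of 39577 cells in the series. They fell into 6 deposited clusters, numbered 13, 15, 27, 35, 39 and 41, with 1028, 998, 773, 441, 294 and 255 cells.

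The study took ear punch wounds of the spiny mouse (Acomys cahirinus, a rodent known for regenerating ear tissue) and of the laboratory mouse, and asked about ERK signalling, a kinase pathway that relays growth factor signals, in regeneration against scarring. In the spiny mouse, strain given as wild-type, wounds were injected from day 12 to day 15 with an ERK inhibitor, an ErbB2 inhibitor (ErbB2 is a receptor of the epidermal growth factor receptor family), an FGFR1/2/3 inhibitor (FGFR, fibroblast growth factor receptor), or DMSO, the solvent control. In the mouse, strain CD1, micro-beads soaked in FGF2/Nrg1, a fibroblast growth factor and a neuregulin ligand of ErbB receptors, or in PBS, the buffer control, were implanted at day 10. The ear tissue was taken apart with a protease and a Dounce homogenizer, red blood cells were lysed, and single-cell 3′ libraries were made from polyA RNA with 10x Chromium v3.1 reagents. Each of the 6 groups was 1 library. The labels used here do not say how many animals a library pooled, so a difference between libraries cannot be told apart from a difference between animals, dissociations or libraries. For the same reason no p-value or standard error is given, and every interval below is a 95% interval for counting error alone.

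Suprabasal keratinocytes are cells that have left the basal layer of the epidermis. They exchange the basal keratins Krt5 and Krt14 for Krt1 and Krt10 in the spinous layer, then make filaggrin, proteases and lipid-processing enzymes in the granular layer, and end as the dead cornified layer that keeps water in. ErbB and FGF receptors act on keratinocytes through ERK, which is known to favour growth and migration over maturation.

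The libraries gave these cells unequal weight. There were 52 cells from the ERK inhibitor library, 1054 from the ErbB2 inhibitor, 545 from the FGFR inhibitor, 1390 from DMSO, 368 from the FGF2/Nrg1 beads and 380 from the PBS beads. The median number of unique molecular identifiers (UMIs, counted molecules) per cell was 19897 in the ERK inhibitor library, 9638.5 in the ErbB2 inhibitor library, 11229 in the FGFR inhibitor library, 5883.5 in the DMSO library, 9281.5 in the FGF2/Nrg1 library and 12764 in the PBS library. Of these cells, 32 carried a barcode that also occurred in another library, as did 368 of all 39577 cells. Spiny mouse reads are tabulated under mouse gene names. In the spiny mouse cells of these clusters 12 of 13 mitochondrial genes and 6603 genes in all had 0 UMIs, against 3958 genes with 0 UMIs in the mouse cells, so no level was compared across species.

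The first pattern in these cells was how the species filled the clusters. Clusters 13, 15, 27 and 35 were mostly spiny mouse. Mouse cells were 8.17% of cluster 13 (exact binomial interval 6.57% to 10.0%), 3.21% of cluster 15, 8.02% of cluster 27 and 5.44% of cluster 35. Clusters 39 and 41 were nearly all mouse, at 99.3% (97.6% to 99.9%) and 99.6% (lower bound 97.8%). Against these shares stood 19.7% mouse cells over the 6 clusters and 20.6% over the series. The 3 spiny mouse cells in clusters 39 and 41 all came from the ErbB2 inhibitor library.

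Seen from each species, the spiny mouse cells were spread over 4 clusters, with 31% in cluster 13, 31.8% in cluster 15, 23.4% in cluster 27 and 13.7% in cluster 35. Of the mouse cells, 39% were in cluster 39 and 34.0% in cluster 41, with 11.2% in cluster 13, 8.29% in cluster 27, 4.28% in cluster 15 and 3.21% in cluster 35. The mouse libraries gave similar counts. Cluster 39 took 145 FGF2/Nrg1 and 147 PBS cells, and cluster 41 took 118 FGF2/Nrg1 and 136 PBS cells.

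In the spiny mouse, cluster 13 held 12 ERK inhibitor, 304 ErbB2 inhibitor, 151 FGFR inhibitor and 477 DMSO cells. Cluster 15 held 19, 308, 160 and 479 cells of those libraries in the same order. Cluster 27 held 16, 263, 127 and 305 cells. Cluster 35 held 5 ERK inhibitor, 176 ErbB2 inhibitor, 107 FGFR inhibitor and 129 DMSO cells. The clusters were made from the expression of these same cells, and genes that define the clusters differed between the libraries, so these counts describe the fill and are not a measure of how many cells matured.

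**Figure D1:**
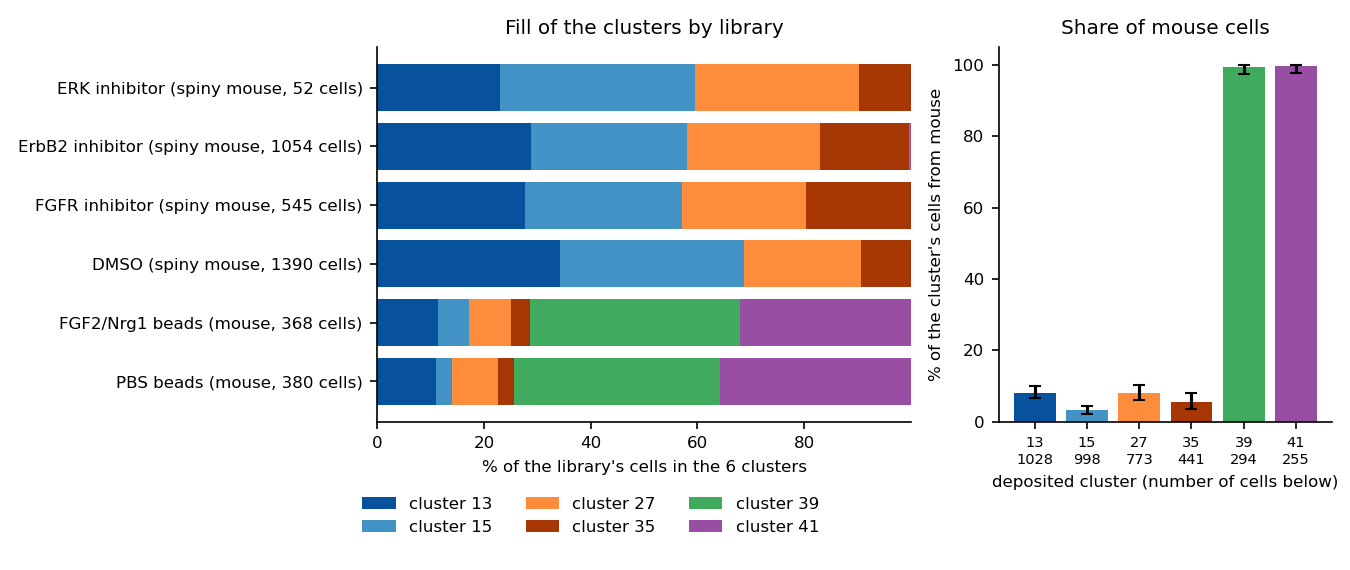
Left, the share in percent of each library's cells that lay in each of the 6 clusters, 1 bar per library with the number of cells beside its name; right, the share in percent of each cluster's cells that came from mouse, with exact 95% binomial intervals and the number of cells under each cluster. The 4 spiny mouse bars hold almost no cells of clusters 39 and 41, which make up most of both mouse bars.

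Of all suprabasal cells of a library, the 6 clusters held 34.0% in the ERK inhibitor library (52 of 153 cells, interval 26.5% to 42.1%), 33.7% in the ErbB2 inhibitor library (1054 of 3129, 32.0% to 35.4%), 45.4% in the FGFR inhibitor library (545 of 1201, 42.5% to 48.2%) and 46.4% in the DMSO library (1390 of 2998, 44.6% to 48.2%). The ERK inhibitor and ErbB2 inhibitor intervals lay below that of DMSO, and the FGFR inhibitor interval overlapped it. With all cells of a library as the denominator the ErbB2 inhibitor share was 9.91% and the FGFR inhibitor share 11.4%. The ERK inhibitor share was 8.24% and the DMSO share 9.05%. The ErbB2 inhibitor library thus no longer lay below DMSO. The ERK inhibitor interval (6.22% to 10.7%) then overlapped that of DMSO (8.60% to 9.51%). In the mouse the 6 clusters held 78.0% of suprabasal cells with FGF2/Nrg1 beads (368 of 472, 74.0% to 81.6%) and 77.7% with PBS beads (380 of 489, 73.8% to 81.3%). Over both species the 6 clusters held 748 of 961 mouse suprabasal cells (77.8%) and 3041 of 7481 spiny mouse ones (40.6%).

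The 4 genes used to check the label are Krt1 (chr15:101845426-101850794, minus strand, build GRCm38) and Krt10 (chr11:99385254-99389364, minus strand), the paired keratins of the spinous layer, Krtdap (chr7:30787896-30791097, plus strand), a small secreted protein of differentiating keratinocytes, and Sbsn (chr7:30751471-30756134, plus strand), suprabasin. Krt1, Krt10 and Krtdap were abundant in 5 of the 6 clusters. Sbsn was low in cluster 13, at 6.82 UMIs per cell with the ErbB2 inhibitor, 3.91 with the FGFR inhibitor and 4.09 with DMSO, against 2.31, 0.967 and 1.81 in non-epithelial cells of the same libraries. Krt10, in CPM (the counts of the summed cells scaled to a fixed total), was at 69121 in the ERK inhibitor, 82734 in the ErbB2 inhibitor, 66331 in the FGFR inhibitor and 71696 in the DMSO library, and at 17267 with FGF2/Nrg1 and 15165 with PBS beads. Krtdap was at 38378 CPM with the ERK inhibitor, 50595 with the ErbB2 inhibitor, 39604 with the FGFR inhibitor, 31516 with DMSO, 9901 with FGF2/Nrg1 and 11208 with PBS beads.

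Each cluster had its own leading genes, ranked by the log2 ratio of their CPM, plus 20, to that of all other cells of the library, averaged over libraries. These levels are a description, since the same genes made the clusters. Cluster 13 was led by Ly6d (1.39), Clca3a2 (1.39) and Sema3d (1.01), and 2 of its 10 leading genes were basal markers, Krt5 and Col17a1, a collagen that anchors basal cells. Cluster 15 was led by Krt2 (1.68), Krt10 (1.45) and Krt1 (1.45), with 4 spinous markers among the first 10. Cluster 27 was led by Krt77 (3.91), a late suprabasal keratin, Hal (3.03), histidase, and Ly6g6c (3.03). Cluster 35 was led by Flg (5.54), filaggrin, Cdsn (4.80), corneodesmosin, Serpina12 (4.47) and Asprv1 (4.47), the protease that trims profilaggrin. Granular markers were 5 of its first 10. Cluster 39, the mouse cluster, was led by Krt2 (3.79), Krt10 (3.37), Krt1 (3.36) and Calm4 (3.09).

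From cluster 13 to 15, 27 and 35 the spiny mouse cells ran from the most basal keratin to the most filaggrin. Krt10 stood at 31900 CPM in cluster 13, 63363 in cluster 15, 108584 in cluster 27 and 105480 in cluster 35 of the DMSO library. The ErbB2 inhibitor library had 36196, 67508, 112400 and 98833 CPM in the same cluster order, and the FGFR inhibitor library 27415, 53849, 87579 and 85540 CPM. Krt77 was low in clusters 13 and 15 and high in clusters 27 and 35, with 8893 CPM in the ErbB2 inhibitor, 13970 in the FGFR inhibitor and 8131 in the DMSO cells of cluster 27. Flg (chr3:93273523-93293686, plus strand) was highest in cluster 35, at 19938 CPM in the ErbB2 inhibitor, 16779 in the FGFR inhibitor and 14974 in the DMSO cells. No more than 1875 CPM of Flg was seen in any library with at least 20 cells in cluster 27.

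The mouse cells are described by themselves, since no level was compared across species. In mouse cells of cluster 13, Krt10 was at 5908 CPM with FGF2/Nrg1 and 6242 with PBS beads, and Krt5 at 9496 and 9981 CPM. In cluster 39, Krt10 was at 22664 CPM with FGF2/Nrg1 and 18872 with PBS beads, Krt2 at 9126 and 6998 CPM, and Flg at 74.9 and 0.407 CPM, of which 1 FGF2/Nrg1 cell held nearly all. Krt77 was at 3708 CPM with FGF2/Nrg1 and 5765 with PBS beads in cluster 27, against 123 and 292 CPM in cluster 39. Of 18 granular genes 8 reached 30 UMIs over both mouse libraries in cluster 27 and 8 in cluster 39, and 8 and 7 of these stood above the background level defined below.

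**Figure D2:**
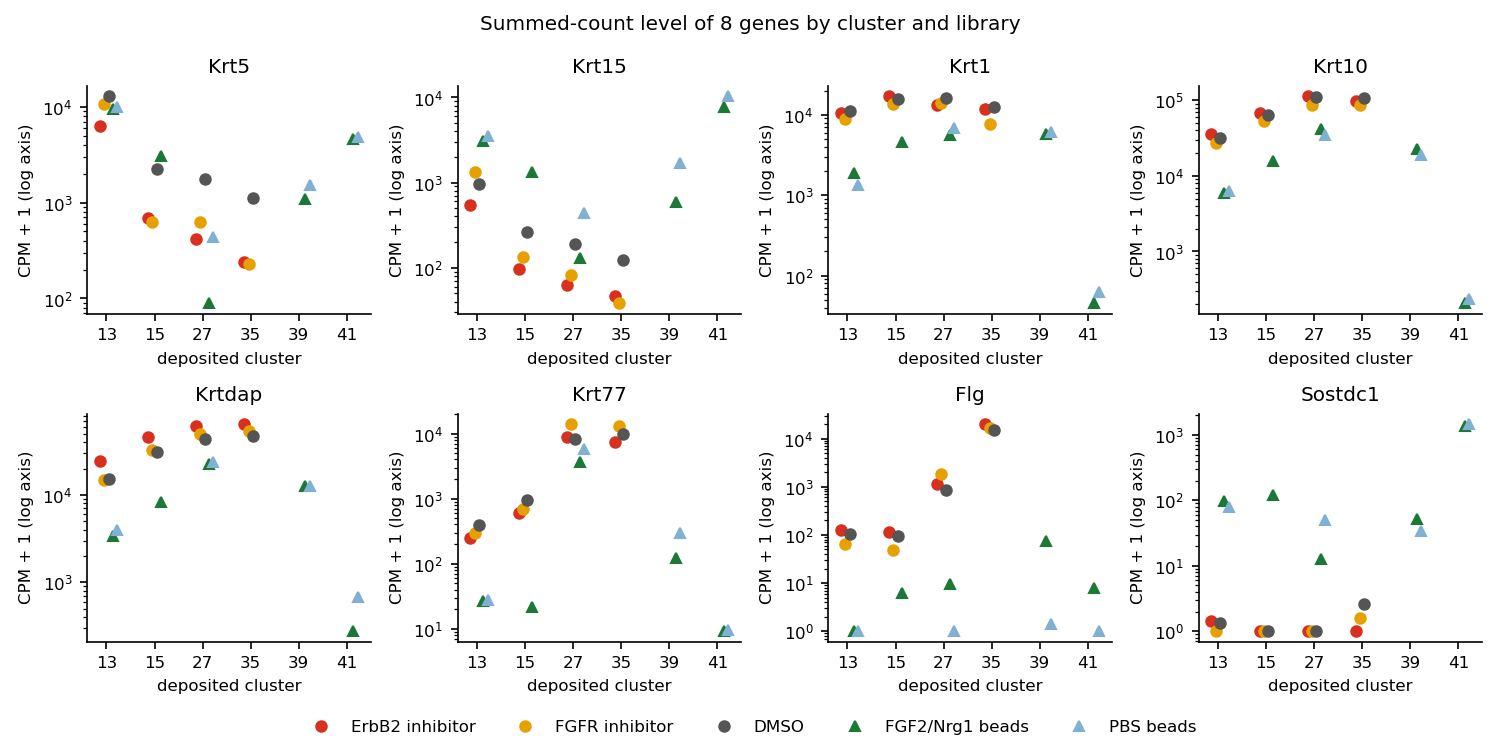
Level of 8 genes as summed-count CPM plus 1 on a log axis, by deposited cluster on the horizontal axis, 1 point per library with at least 20 cells in the cluster (circles spiny mouse, triangles mouse). Krt5 falls and Krt77 and Flg climb along clusters 13, 15, 27 and 35, and Krt1 and Krt10 drop in cluster 41, where Sostdc1 and Krt15 are high.

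Cluster 41 went against its label. The 4 markers together made up a median of 0.0580% of a cell's UMIs with FGF2/Nrg1 and 0.0749% with PBS beads, against 3.96% and 3.70% in cluster 39. That is the level in mouse cells named IFE basal, where the median was 0.0813% with FGF2/Nrg1 and 0.0846% with PBS beads. Krt1 was at 44.1 CPM with FGF2/Nrg1 and 62.4 with PBS beads, and Krt10 at 204 and 233 CPM. Krt10 gave 1.49 UMIs per cell with FGF2/Nrg1 and 2.17 with PBS beads, close to the 1.22 and 1.81 UMIs per cell in non-epithelial cells of the same libraries, a level read as RNA from outside the cell. No UMI of Krt1 or Krt10 was found in 25 of 118 FGF2/Nrg1 cells (21.2%) and 18 of 136 PBS cells (13.2%).

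Basal and follicular genes were high in cluster 41. Krt5 was at 4656 CPM with FGF2/Nrg1 and 4837 with PBS beads, Krt14 at 9833 and 10922 CPM, and Krt15 (chr11:100131758-100135928, minus strand), a keratin of basal cells and the hair bulge, at 7738 and 10304 CPM. Its leading genes were Sostdc1 (chr12:36314139-36318452, plus strand; 3.29), a secreted antagonist of BMP and Wnt signals, Fst (chr13:114452290-114458951, minus strand; 2.96), follistatin, an activin antagonist, Aldh3a1 (2.92) and Lmo1 (2.92). Sostdc1 was at 1366 CPM with FGF2/Nrg1 and 1463 with PBS beads, and Fst at 460 and 403 CPM. Suprabasal genes were not all at the non-epithelial level. Sbsn gave 1.81 UMIs per cell with FGF2/Nrg1 and 2.90 with PBS beads, against 0.380 and 0.417 in non-epithelial cells, and 9 of 12 spinous genes measured there reached 3 times that level in the library in which they were higher, as did 2 of the 4 label markers, Sbsn and Krtdap. The markers of at least 1 other cell type held more UMIs than the 4 suprabasal markers in 115 of 118 FGF2/Nrg1 cells (97.5%) and 134 of 136 PBS cells (98.5%). The 4 markers were so low there that few UMIs of another list are enough for this. These shares therefore do not show that the cells are of another type. Upper follicle markers, Sostdc1 and Fst, were 2 of the 10 leading genes, too few to name the cells, and cluster 41 is called by its number. Results over all mouse cells below are therefore also given by cluster.

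The UMIs a cluster held for a gene were set beside those in other cell types of the same library, which should lack keratinocyte transcripts. These were endothelium, fibroblasts, resident macrophages, T cells and circulating monocytes, each used with at least 15 cells in the library. In the ERK inhibitor library fibroblasts were therefore not used, and T cells numbered 19. A gene was read as made by these cells where its UMIs per cell reached 3 times the median of those types. This limit was chosen after the values were seen, and below it a gene is called at background. In a comparison it was applied in the library where the gene was higher, so a gene can pass through the group in which it is high. The non-epithelial level also differed between libraries. Counts above background therefore describe the genes kept and do not show which direction prevailed. The non-epithelial types can themselves make genes of division, ERK targets and Fgfr1. For such genes a value below the limit does not show RNA from outside the cell. The limit bore most on basal keratin. Krt5 in the DMSO library gave 79.5 UMIs per cell in cluster 13, but 14.6 in cluster 15, 15.9 in cluster 27 and 10.9 in cluster 35, against 12.7 in the non-epithelial types. In the ErbB2 inhibitor library it gave 48.3, 6.41, 6.1 and 3.23 UMIs per cell in the same cluster order, against 4.04. Krt5 outside cluster 13 was thus near background in both of these libraries. Flg behaved alike at the other end, with 0.646 UMIs per cell in cluster 13 and 145 in cluster 35 of DMSO, against 0.696. Krt10 stayed above background in each spiny mouse cluster, at 198 to 1021 UMIs per cell in DMSO against 33.0.

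**Figure D3:**
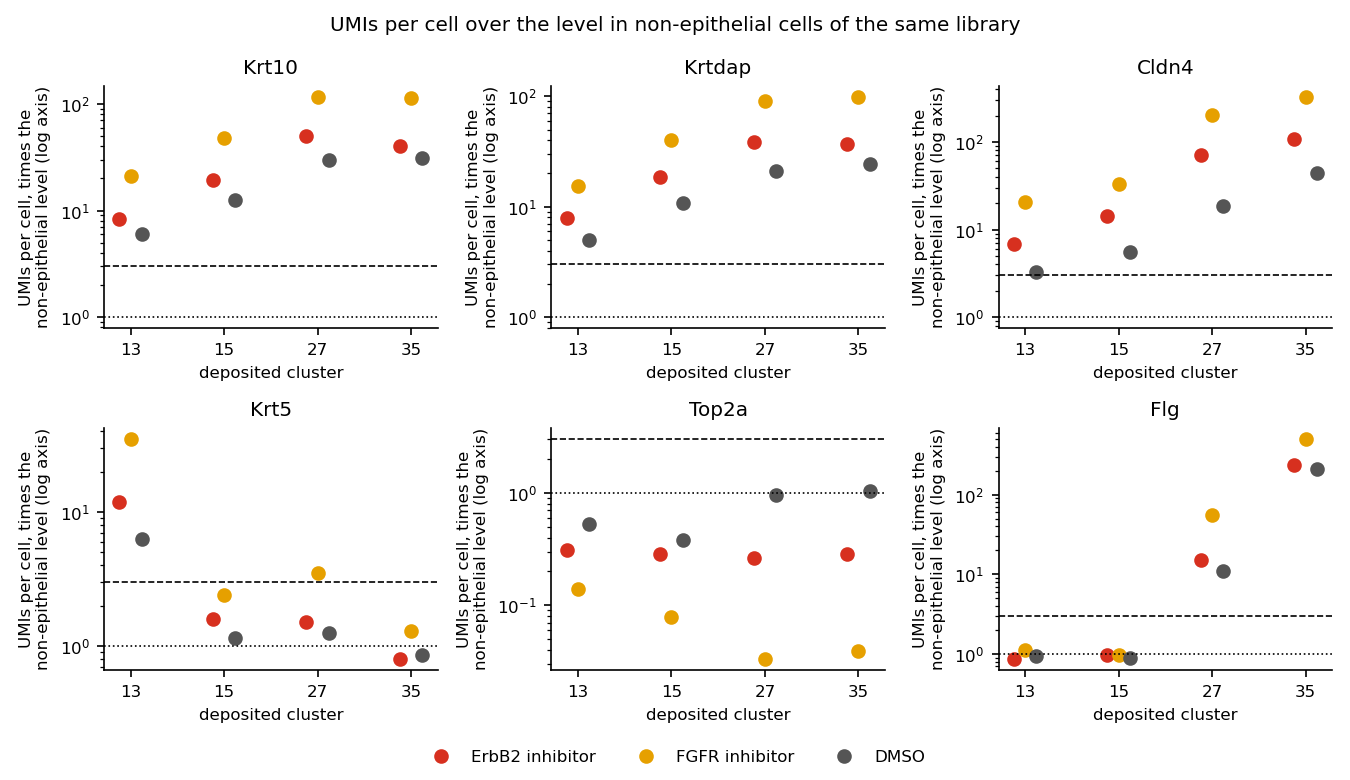
UMIs per cell of 6 genes in clusters 13, 15, 27 and 35, divided by the median of the non-epithelial cell types of the same library, on a log axis, 1 point per spiny mouse library with at least 20 cells in the cluster. The dotted line marks the non-epithelial level and the dashed line 3 times that level, and Top2a lies below the dashed line in each cluster and library while Flg passes it in clusters 27 and 35.

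Markers of other cells differed between the libraries as well. The summed level of 10 fibroblast markers was 79.4 CPM with the ERK inhibitor (6 of 10 at 0), 188 with the ErbB2 inhibitor (0 at 0), 137 with the FGFR inhibitor (1 at 0) and 294 with DMSO (1 at 0). That of 9 T cell markers was 0 CPM with the ERK inhibitor, 3.23 with the ErbB2 inhibitor, 1.76 with the FGFR inhibitor and 14.1 with DMSO, and 11 inner root sheath markers gave 181, 141, 167 and 785 CPM in the same library order. DMSO was highest in all 3 lists, and the part this plays in the ratios below was not tested.

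With the ErbB2 inhibitor against DMSO, genes of tight junctions and of the granular layer were higher, and plakoglobin was lower. A gene counts as higher or lower when its ratio of summed CPM was at least 1.5-fold, among genes with at least 30 UMIs over both libraries. Over all cells 669 of 9139 genes were higher, a background of 7.32%, and 1421 were lower, 15.5%. Scaled by the median gene ratio, which shifts every gene by 0.12 on the log2 scale, the split was 963 higher and 1040 lower. Changes are therefore to be read against a median of all genes of -0.12 on the log2 scale.

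Of the 4 label markers, Krtdap and Sbsn were higher with the ErbB2 inhibitor and none was lower. Krtdap had a log2 ratio of 0.68 over all cells and of 0.68, 0.59, 0.51 and 0.46 in clusters 13, 15, 27 and 35. Sbsn was at 7257 CPM with the ErbB2 inhibitor and 4128 CPM with DMSO, a log2 ratio of 0.81. With the ErbB2 inhibitor cells weighted to the DMSO mix of clusters, the ratios were 0.55 for Krtdap and 0.45 for Sbsn, both short of 1.5-fold. Krt10 (0.21) and Krt1 (-0.09) lay well inside the limit. Of 14 spinous genes measured, 3 were higher (Krtdap, Sbsn and Dmkn, dermokine) and 0 lower, with a median of 0.20.

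Genes of the tight junction, which seals the granular layer, were higher in each cluster compared. Of 8 members measured 5 were higher over all cells and 0 lower, with a median log2 ratio of 0.92. They were the claudins Cldn1, Cldn4 and Cldn23, occludin (Ocln) and F11r, a junctional adhesion molecule. With clusters weighted to the DMSO mix 5 of 8 were again higher, with a median of 0.73. Within clusters the count was 3 of 6 in cluster 13 (backgrounds 8.99% higher and 7.99% lower of all genes), 4 of 7 in cluster 15 (6.50% and 9.41%), 4 of 8 in cluster 27 (6.18% and 13.9%) and 4 of 7 in cluster 35 (9.24% and 14.6%), and none was lower in any of the 4.

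Cldn4 (chr5:134945119-134946934, minus strand), a barrier-forming claudin, was at 169 CPM with the ErbB2 inhibitor and 47.9 CPM with DMSO, a log2 ratio of 1.82 (1.67 to 1.96). Its ratio was 1.29 in cluster 13, 1.38 in cluster 15, 1.71 in cluster 27 and 1.30 in cluster 35. The 5 cells with most Cldn4 held 3.68% of its UMIs, so no few cells carried it. Cldn1, the claudin without which mouse epidermis loses water, was at 270 CPM with the ErbB2 inhibitor and 137 CPM with DMSO, with log2 ratios of 1.33, 0.96, 0.68 and 0.64 along clusters 13, 15, 27 and 35. Ocln had 0.86, 1.24, 0.52 and 0.56 in the same order. Tjp1, the scaffold ZO-1, had a log2 ratio of -0.24 over all cells, and of -0.23, 0.16, -0.46 and 0.62 along the clusters. It is 1 of the 4 counted as higher in cluster 35, on 29 UMIs with the ErbB2 inhibitor and 10 with DMSO, but not above background there, which leaves 3.

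Granular genes were higher over all cells, and fewer were once the mix of clusters was held. Of 16 measured, 12 were higher over all cells with the ErbB2 inhibitor and 0 lower, with a median log2 ratio of 0.94. Weighted to the DMSO mix of clusters the count was 3 of 16 and the median 0.41. Cluster 35 held 16.7% of the ErbB2 inhibitor cells and 9.28% of the DMSO cells. In cluster 27, 7 of 16 were higher with a median of 0.54, and in cluster 35, 3 of 16 with a median of 0.29. Asprv1 was at 1549 CPM in ErbB2 inhibitor cells of cluster 27, against 596 in DMSO cells, and at 8939 CPM in cluster 35, against 3331, log2 ratios of 1.38 and 1.42. Klk7, a kallikrein protease of the cornified layer, had a log2 ratio of 1.64 in cluster 27 and 0.71 in cluster 35. Hrnr, hornerin, a filaggrin relative, had 1.19 and 0.66, and Cdsn 1.34 and 0.35. Flg itself had 0.45 in cluster 27 and 0.41 in cluster 35, inside the limit.

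Basal genes were lower over all cells, 7 of 10 measured and 0 higher, but 3 of the 10 stood above background, and of these Col17a1 and Itgb4, the hemidesmosomal integrin, were lower. In cluster 13, where basal keratin was above background, 3 of 10 basal genes were lower and the list's median was -0.42. Krt5 (chr15:101707070-101712898, minus strand) was at 6343 CPM in ErbB2 inhibitor cells and 12832 CPM in DMSO cells of cluster 13, a log2 ratio of -1.02 (-1.04 to -0.99). Krt14 was at 1091 CPM with the ErbB2 inhibitor and 2393 CPM with DMSO there, a log2 ratio of -1.13, and Krt15 at 542 and 970 CPM, -0.84.

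Il1r2, Acsbg1 and Fkbp5 had larger ratios in clusters 13 and 15 than in clusters 27 and 35. Il1r2 (chr1:40074079-40125231, plus strand), a decoy receptor that binds interleukin-1 without signalling and stood in the neutrophil marker list, was at 284 CPM with the ErbB2 inhibitor and 81.9 CPM with DMSO, a log2 ratio of 1.80 (1.68 to 1.91). By cluster the ratio was 2.73 in cluster 13, 2.42 in cluster 15, 1.30 in cluster 27 and 0.52 in cluster 35. Il1r2 gave 3.93, 2.51, 1.51 and 4.96 UMIs per cell in those clusters with the ErbB2 inhibitor, against 0.35 in non-epithelial types, and 0.482, 0.330, 0.377 and 2.51 with DMSO, against 0.226. In cells named IFE basal it was at 711 CPM with the ErbB2 inhibitor and 143 CPM with DMSO, so the difference was not particular to suprabasal cells.

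Acsbg1, an enzyme that activates long-chain fatty acids, was at 138 CPM with the ErbB2 inhibitor and 46 CPM with DMSO, a log2 ratio of 1.59. Its ratios ran 2.52, 2.36, 1.21 and 0.60 along clusters 13, 15, 27 and 35. Fkbp5, a chaperone induced by glucocorticoids, had 2.54, 2.46, 0.95 and 0.89, with 264 UMIs in the ErbB2 inhibitor library and 65 in DMSO. Both were among the highest-ranked genes of clusters 13 and 15. Pdk4, a kinase that turns off pyruvate oxidation, ranked first over all cells with 248 UMIs in the ErbB2 inhibitor library and 2 in DMSO, a log2 ratio of 6.77 (4.90 to 9.83), at 0.235 UMIs per cell against 0.0693 in non-epithelial types. Tsc22d3, a second glucocorticoid-induced gene, had a log2 ratio of 2.25 and Txnip, an arrestin that limits glucose uptake, 1.37.

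Among the ErbB and FGF receptors and ligands 4 of 10 were higher and 1 lower. Hbegf, a ligand of the EGF receptor, had a log2 ratio of 1.82 (265 UMIs with the ErbB2 inhibitor, 66 with DMSO), Btc, betacellulin, 1.67, Fgf22 2.19 and Erbb3, the partner of ErbB2, 0.60. Fgfr1, the 1 lower, was at background. Of 12 ERK targets and feedback genes 3 were higher (Dusp5, Etv4 and Egr1) and 4 lower, and none of the 4 stood above background over all cells. By cluster some did. Spry2, a feedback inhibitor, and Ccnd1, cyclin D1, were lower above background in cluster 13, at log2 ratios of -0.80 and -0.90, and Spry2 in cluster 15, at -1.05, while Etv4, an ERK-responsive factor, was higher above it in clusters 13, 15 and 27. Dusp6, a phosphatase that turns ERK off, had 51 UMIs with the ErbB2 inhibitor and 79 with DMSO (-0.81), Spry2 53 and 108 UMIs (-1.21), Etv4 236 and 100 UMIs (1.06), and Etv5 1 and 6 UMIs. At 1000 UMIs per cell Dusp6 was at 0.75, on 14 and 11 UMIs. Ccl20, a chemokine that draws immune cells, had 2527 UMIs with the ErbB2 inhibitor and 408 with DMSO (2.45), of which the top 5 cells held 26.3%.

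Of the 11 members of the desmosome list, 10 were measured, 5 were lower over all cells and 0 higher, and 3 of the 5 stood above background (Jup, Dsc2 and Dsc3). Dsc1, a desmocollin of upper layers, was higher and above background in cluster 13 (0.78) and cluster 15 (0.62), and at -0.03 and -0.06 in clusters 27 and 35. Jup, plakoglobin, a link between desmosomes and keratin filaments, was at 334 CPM with the ErbB2 inhibitor and 941 CPM with DMSO, with log2 ratios of -1.54, -1.47, -1.62 and -1.63 in clusters 13, 15, 27 and 35. It was lower by a like amount with the other inhibitors, at 313 CPM with the ERK inhibitor (log2 ratio -1.59) and 289 CPM with the FGFR inhibitor (-1.70). The 3 inhibitor libraries share the DMSO library, so these are not separate findings, and Jup was high in DMSO endothelium too, at 333 CPM, against 121 with the ErbB2 inhibitor, 60.8 with the FGFR inhibitor and 20.7 with the ERK inhibitor. Whether the DMSO library or the inhibitors set Jup apart was not tested. Dsc2 rested on few cells, since 5 DMSO cells held 98.9% of its UMIs in cluster 27.

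Lipid barrier genes, which make the ceramides and fatty acids of the cornified layer, were higher for 5 of 17 and lower for 1 with the ErbB2 inhibitor, with a median of 0.31. Elovl1, which lengthens ceramide fatty acids, was at 373 CPM with the ErbB2 inhibitor and 161 CPM with DMSO, a log2 ratio of 1.21. Wound keratins and partners were lower for 5 of 9 and higher for 1, but among the 5 members above background over all cells 1 was higher (Hbegf) and 1 lower (Krt16). In cluster 27, 4 of the 6 above background were lower (Krt16, S100a9, Sprr1b and Areg) and Hbegf higher, and in cluster 35, 3 of 6 were lower (Krt16, S100a9 and Sprr1b) and Hbegf higher. Krt16, a keratin of wounded epidermis, had log2 ratios of -1.67 and -0.61 in those clusters, and 5 DMSO cells held 56.1% of its DMSO UMIs in cluster 27. The 6 lowest-ranked genes, Tchh, Tchhl1, Krt71, Krt75, Krt25 and Crisp1, are mostly genes of the hair root sheath and came from few DMSO cells. For Tchh, trichohyalin, 5 DMSO cells held 67.4% of UMIs. High-ranked Lce1b, Lce1f and Ccl1 were of the same kind on the ErbB2 inhibitor side, with 89.2%, 67.1% and 69.9% of their UMIs in 5 cells.

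**Figure D4:**
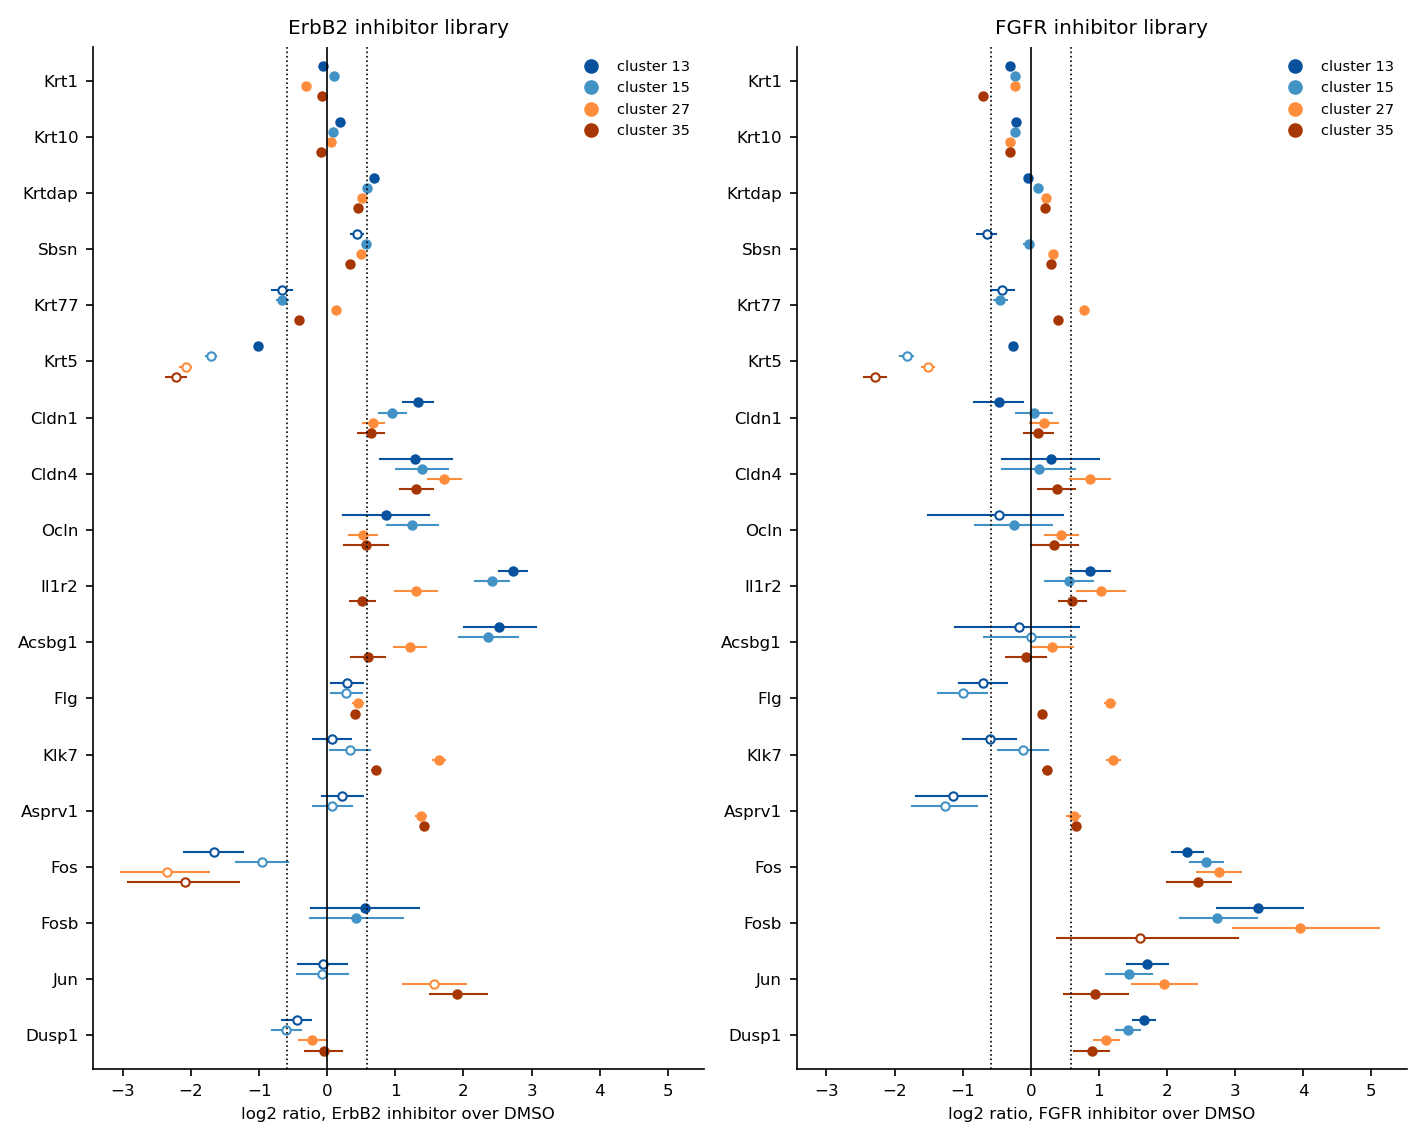
Log2 ratio of summed CPM of the ErbB2 inhibitor library over DMSO (left) and of the FGFR inhibitor library over DMSO (right) for 18 genes, 1 point per cluster with a 95% interval for counting error, filled where the gene stood at 3 times the non-epithelial level in the higher library and open where it did not; dotted lines mark 1.5-fold. Cldn4, Il1r2 and Acsbg1 lie right of 0 in the ErbB2 inhibitor panel, and Fos, Fosb, Jun and Dusp1 right of 0 in the FGFR inhibitor panel.

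With the FGFR inhibitor against DMSO, immediate early genes and Krt77 were higher in these cells. Over all cells 539 of 8799 genes were higher (6.13%) and 1207 lower (13.7%). Scaled by the median gene ratio the split was 699 and 971, and the median of all genes was -0.10 on the log2 scale. They were read from a list of dissociation and immediate early genes. Immediate early genes answer stress or growth signals within minutes, and the list also holds the heat shock genes Hspb1, Hsp90aa1 and Dnajb1. Of its 14 members measured, 7 were higher and 1 lower, with a median log2 ratio of 0.55. Of the 9 above background, 5 were higher (Fos, Fosb, Jun, Egr1 and Hspb1) and 0 lower. Of all 3620 genes above background over all cells, 472 were higher and 193 lower. The limit thus took out more of the lower genes than of the higher ones.

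Fos (chr12:85473890-85477273, plus strand), a subunit of the AP-1 transcription factor, was at 286 CPM with the FGFR inhibitor and 55.1 CPM with DMSO, a log2 ratio of 2.38 (2.24 to 2.51). It was at 16.6 CPM with the ErbB2 inhibitor and 41.5 CPM with the ERK inhibitor, both under DMSO. The FGFR inhibitor ratio was near the same in each cluster, at 2.29, 2.58, 2.76 and 2.46 in clusters 13, 15, 27 and 35. In UMIs per cell Fos gave 3.54, 3.69, 3.87 and 3.16 with the FGFR inhibitor, against 0.652 in non-epithelial types, and 0.482, 0.380, 0.325 and 0.349 with DMSO, against 0.168. The top 5 FGFR inhibitor cells held 10.2% of Fos UMIs. Fosb, its relative, had a log2 ratio of 2.87, Jun, the partner of Fos in AP-1, 1.45, and Dusp1, an induced phosphatase outside the list, 1.27.

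The dissociation and immediate early list was also counted within clusters with the FGFR inhibitor. In cluster 13, 5 of 13 were higher (backgrounds 5.47% higher and 8.44% lower), and in cluster 15, 4 of 12 (4.74% and 7.94%). In cluster 27 the count was 8 of 13 (5.21% and 11.8%) and in cluster 35 it was 5 of 13 (7.79% and 11%). Only 1 was lower, in cluster 15. Fos was higher outside these cells as well. It stood at 374 CPM with the FGFR inhibitor and 70.0 CPM with DMSO in IFE basal cells, and at 113 and 29.0 CPM in endothelium. Immediate early genes are also known to rise when tissue is dissociated. The part of dissociation in these values was not tested. Of 8 genes in the heat shock list 0 were higher and 0 lower over all cells. That list shares Hsp90aa1 and Dnajb1 with the dissociation and immediate early list, so the lists are not separate. Hspb1, a heat shock gene kept in the dissociation and immediate early list, was higher over all cells. Hspd1 and Hspe1 were lower in cluster 35.

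Krt77 (chr15:101858731-101869705, minus strand) was at 7655 CPM with the FGFR inhibitor and 3852 CPM with DMSO, a log2 ratio of 0.99. Its ratio was 0.78 in cluster 27 and 0.41 in cluster 35, but -0.42 in cluster 13 and -0.45 in cluster 15, where little of it was made. Weighted to the DMSO mix of clusters it was 0.58, at the edge of the limit. Sbsn was the 1 of 4 label markers past 1.5-fold, at a log2 ratio of 0.72 over all cells, but at -0.65, -0.03, 0.32 and 0.30 by cluster and 0.23 with the mix weighted. Spinous genes were higher for 4 of 14 (Sbsn, Krt77, Dmkn and Notch3, a Notch receptor) and lower for 1, Hes1, a Notch target.

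Granular genes were higher over all cells with the FGFR inhibitor, but not in every cluster. Of 16, 12 were higher over all cells and 0 lower, with a median log2 ratio of 0.98, but 2 of 16 with a median of 0.28 once the FGFR inhibitor cells were weighted to the DMSO mix. Cluster 35 held 19.6% of the FGFR inhibitor cells. In cluster 27, 8 of 16 were higher, with a median of 0.60, and in cluster 35, 2 of 16, with a median of 0.17. In cluster 13, 7 of 13 were lower and 0 higher, with a median of -0.59, and in cluster 15, 6 of 14 were lower and 0 higher, with a median of -0.22, none of the lower ones above background. With the ErbB2 inhibitor 2 of 14 were lower in cluster 13 and 0 in cluster 15. Flg was at 1875 CPM in FGFR inhibitor cells of cluster 27 and 837 CPM in DMSO cells, a log2 ratio of 1.16, but at 0.16 in cluster 35. Klk7 had 1.21 in cluster 27 and 0.24 in cluster 35. The 2 inhibitor comparisons share their DMSO cells.

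Tight junction genes were higher for 3 of 8 with the FGFR inhibitor and lower for 0, with a median of 0.35, and for 0 of 8 with the mix of clusters weighted. Cldn4 had a log2 ratio of 0.94 over all cells, 0.87 in cluster 27 and 0.38 in cluster 35. At 1000 UMIs per cell its ratio was -0.14, on 26 UMIs with the FGFR inhibitor and 73 with DMSO. Il1r2 had a log2 ratio of 1.07, with 0.88, 0.56, 1.02 and 0.61 along the clusters. Acsbg1 was inside the limit at 0.53. Among receptors and ligands 4 of 10 were higher, with Btc at 88 UMIs against 13 with DMSO (3.32), Fgf22 at 2.18, Hbegf at 1.16 and Areg, amphiregulin, at 1.09. Dusp6 had 87 UMIs with the FGFR inhibitor and 79 with DMSO (0.70), Spry2 a log2 ratio of -0.61, Etv4 -0.22, and Etv5 0 and 6 UMIs. Over all cells Dusp6, Spry2 and Etv5 were at background. By cluster, Dusp6 was higher above background in cluster 13, at 1.12, Spry2 lower above it in cluster 15, at -0.61, and Etv4 higher above it in cluster 35, at 0.93 on 26 and 10 UMIs. At 1000 UMIs per cell Dusp6 was at -1.11 and Spry2 at 0.18. Basal genes were lower for 7 of 10, and of the 3 above background Col17a1 and Trp63, the master factor of the basal layer, were lower. In cluster 13 Krt5 was inside the limit at -0.26. Of the named genes Arg1, Ccl1 and Krtap3-1 rested on few cells, with 35% of Ccl1 UMIs in 1 cell.

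With the ERK inhibitor 52 cells were left, and 1 of them held 6.92% of their UMIs. Over all cells 917 of 8221 genes were higher (11.2%) and 1325 lower (16.1%), a wider scatter than with the other inhibitors. None of the 4 label markers passed 1.5-fold, with log2 ratios of 0.36 for Sbsn, 0.28 for Krtdap, -0.05 for Krt10 and -0.19 for Krt1. Of 16 granular genes 1 was higher (Asprv1, 1.33) and 1 lower (Flg2, 0 UMIs against 275 in DMSO). Tight junction genes were higher for 2 of 8, Ocln at 0.69 and Cldn1 at 0.60, and lower for 1, Cldn23 at -0.81. At 1000 UMIs per cell Ocln was at -0.37, on 2 UMIs with the ERK inhibitor and 69 with DMSO.

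Il1r2 was higher with the ERK inhibitor too, at 240 CPM against 81.9 CPM with DMSO, a log2 ratio of 1.55, though 1 cell held 32.0% of its UMIs. Without the deepest cell of each library its ratio was 1.64. The highest-ranked genes included Rasd1, a Ras-like gene induced by glucocorticoids (22 UMIs with the ERK inhibitor, 14 with DMSO, log2 ratio 3.81) and Pla2g2d, a secreted phospholipase (26 and 29 UMIs, 3.00). Mt2, a metallothionein, rested on 1 cell with 84.9% of its UMIs. Of 12 ERK targets 2 were higher (Myc at 0.94 and Epha2 at 1.02) and 6 lower, and the 6 were at background. Dusp6 had 7 UMIs with the ERK inhibitor, Spry2 8, Etv4 3 and Etv5 0, against 79, 108, 100 and 6 UMIs with DMSO. Ccl20 had 1 UMI against 408, and Hbegf 2 against 66.

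Mitosis genes were lower in all 3 inhibitor libraries, at levels under 3 times the non-epithelial one. The 3 comparisons share the DMSO library, so their counts are not separate findings. In the ErbB2 inhibitor and the FGFR inhibitor library alike 13 of 14 mitosis genes lay below DMSO past the limit and 0 above, and with the ERK inhibitor 12 of 13 and 0. None of them reached 3 times the non-epithelial level of the library in which it was higher, in any of the 3 comparisons. Non-epithelial types can make these genes themselves, so the limit cannot tell whether the suprabasal cells made them. Top2a, a topoisomerase of dividing cells, gave 0.0455 UMIs per cell with the ErbB2 inhibitor, against 0.160 in non-epithelial types, and 0.175 with DMSO, against 0.284. The DNA replication list had 10 of 11 genes lower with the ErbB2 inhibitor and with the FGFR inhibitor, and again none reached 3 times the non-epithelial level there. With the ERK inhibitor 5 of 11 replication genes were lower and 0 higher, and the 1 of 11 above background was not among the lower ones.

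In the mouse, with FGF2/Nrg1 beads against PBS beads, Skint9 was higher and the chemokine Ccl27a lower, while the 4 label markers lay within 1.5-fold over all cells. Over all cells 339 of 10066 genes were higher (3.37%) and 600 lower (5.96%), with a median of all genes of -0.04. None of the 4 label markers passed 1.5-fold over all cells or in clusters 13, 27 and 39. In cluster 39, Krt10 had a log2 ratio of 0.26, Krt1 -0.09, Sbsn 0.07 and Krtdap -0.00, with 12557 CPM of Krtdap with FGF2/Nrg1 and 12576 CPM with PBS beads. Of 9 tight junction genes and of 10 desmosome genes, 0 passed the limit in either direction over all cells. By cluster a few did, with Tjp1 lower in cluster 39 (-0.59), Dsg1b lower in cluster 27 (-0.80), and Dsg1a and Jup lower and Ocln higher in cluster 41 (-1.60, -0.62 and 0.97).

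Keratins at both ends of the gradient differed within cluster 39, where 297 genes were higher (3.74%) and 628 lower (7.90%). Krt2 (chr15:101810689-101818169, minus strand), a late suprabasal keratin, was at 9126 CPM with FGF2/Nrg1 and 6998 CPM with PBS beads, a log2 ratio of 0.38, and in cluster 27 its ratio was 0.73. Krt77 was lower, at -1.25 in cluster 39 and -0.64 in cluster 27. The basal keratins were lower in cluster 39, Krt15 at -1.52 (592 CPM with FGF2/Nrg1, 1704 with PBS), Krt14 at -1.25 (625 and 1487 CPM) and Krt5, inside the limit, at -0.51. Krt14 and Krt15 stood above background in cluster 39 in the PBS library, where they were higher. In cluster 13 Krt5 stood at -0.07, Krt14 at 0.01 and Krt15 at -0.21. In cluster 27 all 6 measured basal genes were lower, 5 of them above background (8.13% of genes higher and 12.2% lower there), but 1 PBS cell held 53.4% of the Krt5 and 62.1% of the Krt14 UMIs.

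Skint9, a member of the Skint family whose founding gene selects the T cells of mouse epidermis, was at 228 CPM with FGF2/Nrg1 and 50.6 CPM with PBS beads, a log2 ratio of 2.17 (1.97 to 2.37). Its ratio was 2.34 in cluster 27 and 2.13 in cluster 39, and 5 cells held 14.6% of its UMIs. The Skint genes as a family were counted after the values of Skint9 were seen. Of 11 measured over all cells, 5 were higher (Skint1, Skint3, Skint4, Skint9 and Skint11) and 3 lower (Skint2 at -2.31, Skint8 at -1.04 and Skint10 at -0.79), and all 11 stood above background. In cluster 39, 6 of 9 were higher and 0 lower, and in cluster 27, 6 of 9 were higher and 2 lower. Skint9 gave 2.28 UMIs per cell with FGF2/Nrg1 and 0.718 with PBS beads, against 0.00913 and 0.00326 in non-epithelial types. CD1 is an outbred strain, and a difference between the animals behind the libraries cannot be told apart from one made by the beads.

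Ccl27a, a chemokine of keratinocytes that draws T cells to skin, was lower in 3 clusters. It was at 225 CPM with FGF2/Nrg1 and 542 CPM with PBS beads over all cells, a log2 ratio of -1.27, with -2.06 in cluster 13, -2.30 in cluster 39 and -0.87 in cluster 41. Over all cells but cluster 41 the ratio was -2.06. Tslp, a cytokine of damaged epithelium, had 0.64 over all cells, on 133 UMIs with FGF2/Nrg1 and 125 with PBS. AY036118, a transcript with no role given in the sources used here, was lower in each cluster compared, by log2 ratios of -1.36 to -1.92, with 619 CPM with FGF2/Nrg1 and 2019 CPM with PBS beads over all cells.

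Within cluster 41 the leading genes Sostdc1 and Fst lay inside the limit. Sostdc1 had a log2 ratio of -0.10 there and Fst 0.19, and of 11 basal genes 0 were higher and 0 lower, against 5.08% and 8.78% of all genes. Krtdap, at 274 CPM with FGF2/Nrg1 and 683 CPM with PBS beads (-1.32), was its 1 label marker past 1.5-fold, and Dsg1a, a desmosomal cadherin of upper layers, had -1.60. In cluster 13 the 84 mouse cells, 42 of each library, gave 6.56% of genes higher and 10.2% lower.

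The genes that ERK is known to raise were too few to read in the mouse cells. Dusp6 had 21 UMIs with FGF2/Nrg1 and 18 with PBS beads (log2 ratio 0.77, and -0.95 at 1000 UMIs per cell), Spry2 26 and 47 (-0.31), Etv4 5 and 5 (0.55) and Etv5 7 and 8 (0.36). Of 13 ERK targets 1 was higher and 3 lower, and among the 5 above background 0 were. Fos was lower, at -2.60, and within cluster 39 5 PBS cells held 83.1% of its PBS UMIs. Genes of blood, fibroblasts and the inner root sheath were higher for 3 of 4, 4 of 6 and 6 of 8, and none of the higher members stood above background. Fn1, fibronectin, and Spp1, osteopontin, ranked among the highest genes at levels below those of non-epithelial cells, with 0.272 UMIs of Fn1 per cell with FGF2/Nrg1 against 0.963. Among the other ranked genes, 1 PBS cell held nearly all UMIs of Lce1l, Lce1m and Lce1i, and 5 FGF2/Nrg1 cells held 97.4% of those of Lce1g.

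**Figure D5:**
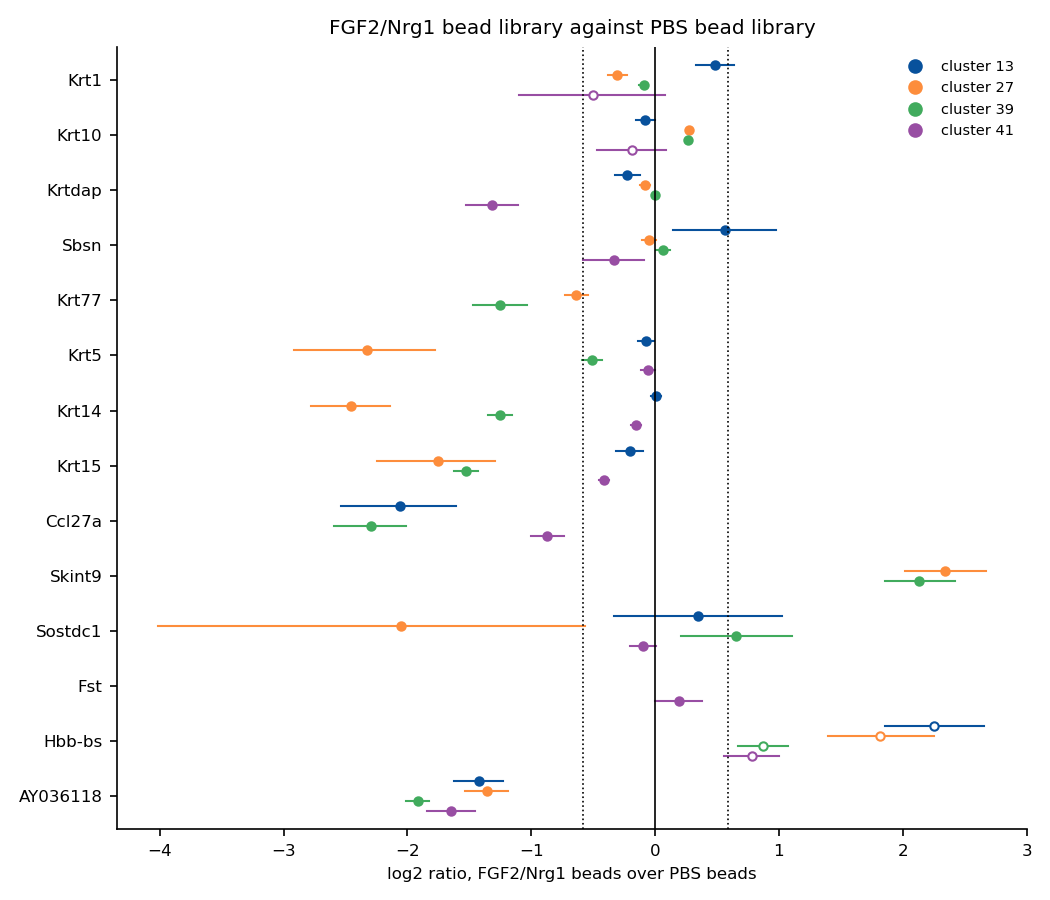
Log2 ratio of summed CPM of the FGF2/Nrg1 bead library over the PBS bead library for 14 genes, 1 point per cluster with a 95% interval for counting error, filled where the gene stood at 3 times the non-epithelial level in the higher library and open where it did not; dotted lines mark 1.5-fold. Krt1 and Krt10 lie inside the limits in each cluster, Skint9 lies above 2 in clusters 27 and 39, and Ccl27a in clusters 13, 39 and 41 and AY036118 in each cluster lie below the lower limit.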

How the data were processed

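Droplet single-cell RNA was measured in 6 libraries, 1 per group. The authors deposited UMI counts per gene and cell, and a table with each cell's library, cluster, cell type, UMI and gene counts and the percent of UMIs from mitochondrial, haemoglobin and ribosomal genes. Cell Ranger 6.1.1 and builds GRCm38 and mm10 are named in the submitters' processing notes. Cluster columns carry Seurat names, per the file headers. The reference behind the spiny mouse counts, the filters on cells and the treatment of doublets were named by no label or header, and no doublet caller was run.

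Counts were summed over the cells of a library and scaled to CPM with Python 3.11.15, numpy 2.4.6, scipy 1.17.1 and pandas 2.3.3, and drawn with matplotlib 3.10.9. Ratios carry exact conditional binomial intervals and shares exact Clopper-Pearson intervals, all for counting error alone. A gene was called past 1.5-fold where the libraries compared held 30 UMIs or more in sum, and a cluster was compared with at least 20 cells in each library. The calculation was tested on simulated data.

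Genes named are the 6 highest and 6 lowest of each comparison, ranked by the interval bound nearest 0, up to 4 members of each list with the largest ratio, the 4 label markers, Dusp6, Spry2, Etv4 and Etv5, and the 8 leading genes of each cluster. Within clusters the same ranking was used. Of the genes this rule names with the ERK inhibitor, 1 is not reported here. Values given for other list members and for Dusp1 outside clusters 13 and 15 were chosen after they were seen. The cells and the gene lists were chosen with earlier results of these data known. Alternatives were the filter, the denominator, scaling, cluster mix, thinning to 1000 UMIs per cell, the mean over cells, and sets of cells or genes left out. Gene positions are those of GENCODE on GRCm38.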

Additional observations from a re-analysis of the deposited data

Results flagged for a closer look

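The genes below differed in direction between clusters in the same comparison, past 1.5-fold each way. The difference between clusters was not tested, since each group is 1 library. Most of the lower values sit where the gene is at background.

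With the ErbB2 inhibitor against DMSO, Cst6, a protease inhibitor of the granular layer, had a log2 ratio of 1.06 in cluster 27 and -0.86 in cluster 13. It gave 14.9 UMIs per cell in cluster 27 with the ErbB2 inhibitor and 4.41 with DMSO, but 0.868 and 1.29 in cluster 13, against 0.843 and 1.0 in the non-epithelial types. Slpi, a secreted protease inhibitor, had 1.5 in cluster 35 and -1.18 in cluster 15, where it was below the non-epithelial level in both libraries.

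With the FGFR inhibitor against DMSO, Flg had 1.16 in cluster 27 and -0.99 in cluster 15, where it gave 0.512 UMIs per cell with the FGFR inhibitor and 0.626 with DMSO, against 0.536 and 0.696 in the non-epithelial types. Asprv1 had 0.66 in cluster 35 and -1.15 in cluster 13, where it was near that level too. Cst6 had 1.17 in cluster 27 and -1.44 in cluster 13. Krt17, a keratin of follicles and wounds, had 1.59 in cluster 35, where 1 FGFR inhibitor cell held 46.5% of its UMIs, and -1.17 in cluster 13.

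With FGF2/Nrg1 against PBS beads, S100a9, a neutrophil gene also made by stressed keratinocytes, had 2.04 in cluster 39 and -5.28 in cluster 13. In cluster 39 it was below the non-epithelial level in both libraries.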

How the results depend on the processing

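No paired analysis was possible because each group has 1 library. No library was left out, since that would empty a group. Depth differed between libraries, intervals cover counting error alone, and the ERK inhibitor group rests on 52 cells.

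The difference in the share of suprabasal cells was -12.7 percentage points for the ErbB2 inhibitor against DMSO, but 0.866 as a share of all cells of the library. For the ERK inhibitor it was -12.4 and became -0.807, and for FGF2/Nrg1 against PBS it was 0.256 and became -5.19. Genes past 1.5-fold numbered 2242 with the ERK inhibitor, 2090 with the ErbB2 inhibitor, 1746 with the FGFR inhibitor and 939 with FGF2/Nrg1. With no filter beyond 1 UMI they were 3380, 4170, 3536 and 2971, and with at least 100 UMIs 1161, 1221, 900.0 and 284. With cells thinned to 1000 UMIs they were 1132 for the ErbB2 inhibitor, 942 for the FGFR inhibitor and 531 for FGF2/Nrg1. With the mix of clusters weighted they were 1080.0 for the FGFR inhibitor. The filter and the thinning change how many genes are tested, so these counts alone do not show calls lost or gained. At 3 times the non-epithelial level, genes past 1.5-fold were 971 of 3778 with the ERK inhibitor (687 higher, 284 lower) and 822 of 3611 with the ErbB2 inhibitor (530 and 292). They were 665 of 3620 with the FGFR inhibitor (472 and 193) and 482 of 4509 with FGF2/Nrg1 (161 and 321). For each inhibitor the limit turned the balance from more lower to more higher genes. Without it the ERK inhibitor had 917 higher and 1325 lower, and the other splits are given below. The limit was applied in the library where a gene was higher, so it is not neutral to direction. That limit, leaving out cluster 41 and leaving out the deepest cell of each library were chosen after seeing the data. Scaling by the median gene ratio gave 963 higher and 1040 lower for the ErbB2 inhibitor, 699 and 971 for the FGFR inhibitor, and 432 and 516 for FGF2/Nrg1, against 669 and 1421, 539 and 1207, and 339 and 600.

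At 1000 UMIs per cell 6 values of 4 genes changed sign. These were Ocln with the ERK inhibitor (-0.37), Dusp6 with the ErbB2 inhibitor (0.75), Cldn4 (-0.14), Dusp6 (-1.11) and Spry2 (0.18) with the FGFR inhibitor, and Dusp6 with FGF2/Nrg1 (-0.95). The cause was not tested. Over the alternatives run for single genes, 425 values stayed within the counting interval of the value reported and 199 moved beyond it without a change of sign. With cells thinned to 1000 UMIs, 39 stayed and 52 moved. With the mix of clusters weighted, 49 stayed and 54 moved. Without the deepest cell of each library, 97 stayed and 6 moved. Leaving out cells led by markers of another type, 96 stayed and 6 moved. That step removed 1 of 1390 DMSO cells, no inhibitor cell, 129 FGF2/Nrg1 and 142 PBS cells.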
